A study of Homo sapiens with 23 samples.

Results

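The regions described here are stretches of the genome of NCI-H23, an established human non-small cell lung cancer line, where both replicate libraries had a peak for histone H4 acetylated at lysine 8 (H4K8ac) and no library had one for acetylation at the other H4 positions profiled. The intervals were chosen by the H4 acetylation peak calls themselves: both H4K8ac lists were intersected and each shared interval was kept that touched no H4K5ac, H4K5acK8ac or H4K12ac peak of either library. Of 69715 shared intervals, 13017 (18.7%) met that rule, so their gap in H4K5ac, H4K5acK8ac and H4K12ac is a description and not a finding. They are called H4K8ac-only intervals below, a name that refers to peak calls and to these 4 H4 targets, and the remaining 56698 are called other shared intervals. The H4K8ac-only intervals covered 2.36 Mb and the others 19.0 Mb.

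The tail of histone H4 carries several lysines that acetyltransferases modify, among them lysines 5, 8 and 12. Acetylation of the tail is found at active promoters and enhancers, and the bromodomains of BET proteins such as BRD2 bind acetylated lysines of the H4 tail. H3K4me3 marks active promoters, H3K4me1 with H3K27ac marks active enhancers, H3K36me3 lies over the bodies of transcribed genes, and H3K27me3 and H3K9me3 mark Polycomb-repressed chromatin and heterochromatin.

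Chromatin immunoprecipitation with sequencing was carried out for 11 targets with 2 libraries each, all from the same cell line; 1 further sample was input chromatin and was not used here. The antibody to H4K5acK8ac, the tail acetylated at both lysines, was a mouse monoclonal made by the submitters, those to H3K27ac and H3K4me3 were mouse monoclonals, and all others, including the one to H4K8ac, were rabbit polyclonals. The treatment protocol names the BET inhibitor JQ1 and its solvent DMSO, but no label says which library received which, so every group here is a target and not a treatment. The labels do not say whether replicate libraries came from separate cultures, and the SD given below measures the spread between these libraries, which may be technical. A two-sided exact test of 2 libraries against 2 could not go below a p of 0.333, and regions of 1 genome are not replicates, so all comparisons are given as values without a test. The lists held between 21580 and 277462 peaks. They give no read numbers, so depth is unknown.

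Most shared intervals that were left out met several of the 6 exclusion lists. H4K5ac peaks met 51892 of the shared intervals (74.4%), H4K5acK8ac peaks 44530 (63.9%) and H4K12ac peaks 43925 (63.0%). All 6 lists met 28195 intervals (40.4%), whereas 8195 (11.8%) were met by a single list. H4K5ac alone left out 5968 intervals that neither other target met, against 2870 for H4K12ac and 1274 for H4K5acK8ac.

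The absence of other H4 acetylation went with poor recovery of the H4K8ac peak itself. The first H4K8ac library had 224726 peaks, of which 107494 (47.8%) met no other H4 acetylation, and 10.0% of these were found in the second library. Of its 117232 peaks with other H4 acetylation, 42.3% were found there. The second library had 116852 peaks, of which 43448 (37.2%) met no other H4 acetylation, and 27.1% of these were found in the first library, against 74.2% of its 73404 peaks with it. Placing the same peaks at every possible circular shift along their chromosomes would by position alone have given 3.13% and 6.22% for the peaks without other acetylation. Observed over expected recovery was thus 3.20 and 4.36, and for the peaks with other H4 acetylation it was 10.1 and 9.71.

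The H4K8ac-only intervals were short and of low significance. Their median width was 196 bp, with quartiles of 114 and 233 bp and a maximum of 787 bp. The other shared intervals had a median of 263 bp and a maximum of 7536 bp. Intervals under 100 bp made up 2784 (21.4%) of the H4K8ac-only set and 8.51% of the others, while 47 H4K8ac-only and 8994 other intervals reached 500 bp. The H4K8ac peaks beneath the H4K8ac-only intervals had a median −log10 q of 2.72 in the first library and 1.59 in the second, against 5.16 and 2.33 beneath the others. Median fold enrichment over the peak caller's background was 2.96 and 3.11 against 3.74 and 3.51. These scores are the authors' values, and they were weaker in both libraries.

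The share of H4K8ac-only intervals fell with every step in strength and width. Since 1 shared bp leaves an interval out, the rule removes wide intervals more readily than narrow ones. How much of the fall comes from the rule was not tested. Among the intervals whose weaker H4K8ac peak had a −log10 q under 1.3, that is a q above 0.05, 31.8% were H4K8ac-only. The share was 25.4% from 1.3 to 2, 14.7% from 2 to 3 and 4.61% from 3 to 5. Of 6029 intervals at 5 or more, 1 was H4K8ac-only (0.0166%). A q of at most 0.05 in both libraries was held by 8848 H4K8ac-only intervals (68.0%) and by 84.2% of the others. By width the share went from 36.6% under 100 bp to 0.520% at 500 bp or more.

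**Figure D1:**
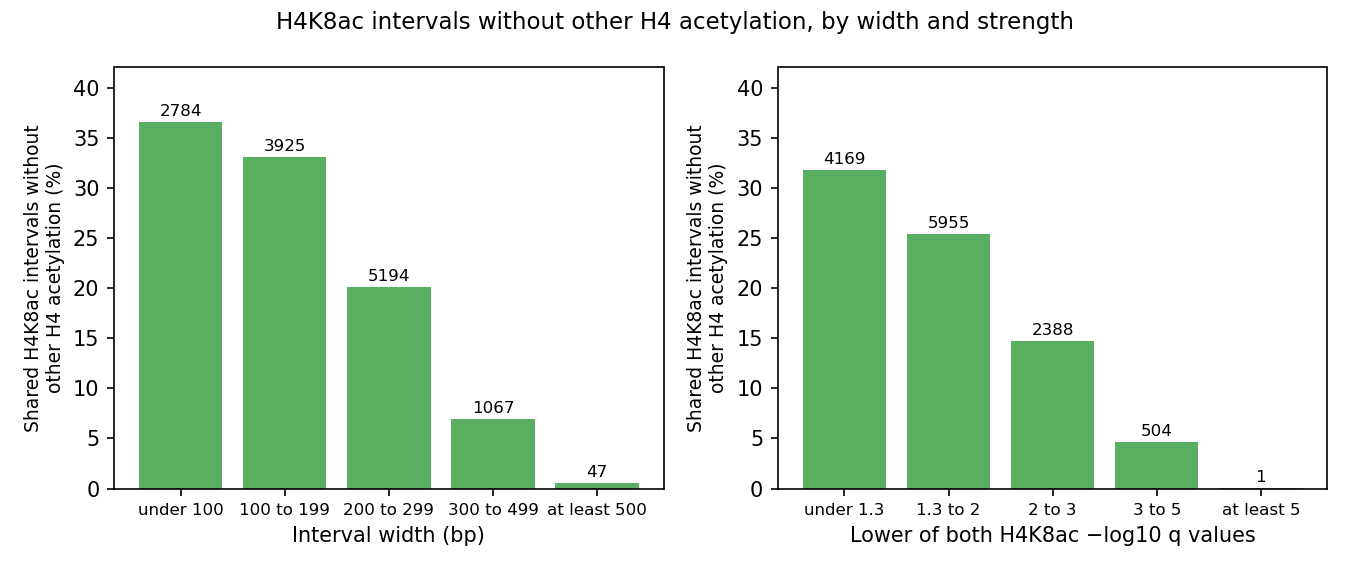
Percentage of shared H4K8ac intervals that met no other H4 acetylation (vertical axes), by interval width in bp (left) and by the lower of the −log10 q values of both H4K8ac peaks (right); the number over each bar counts the H4K8ac-only intervals. The share falls from 36.6% to 0.520% with width and from 31.8% to 0.0166% with significance. The rule itself removes wide intervals more readily than narrow ones.

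A part of the set came from H4K8ac peaks that met other H4 acetylation elsewhere along their length. For 2837 intervals (21.8%) the H4K8ac peak they came from, in 1 library or the other, did meet other H4 acetylation outside the shared stretch. The peak of the first library did so for 2089 intervals and that of the second for 948, so for most it was 1 library only. The 2837 intervals had a median gap of 91 bp to the other H4 acetylation. The other 10180 (78.2%) came from H4K8ac peaks free of it over their whole length, with a median interval width of 202 bp and a median gap of 1438 bp. At the boundary of the rule, 220 intervals lay within 10 bp of another H4 acetylation peak and were kept, of which 18 touched it with a gap of 0 bp, whereas 594 intervals were left out for an overlap of 10 bp or less. The kept ones had a median width of 186 bp and the left-out ones of 8 bp, with median H4K8ac −log10 q of 3.02 and 3.07 in the first library.

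The strongest intervals show the range of these settings. The 6 with the highest H4K8ac significance in their weaker library, coordinates 1-based in hg19, were chr11:69303366-69303727, chr18:74233983-74234358, chr20:36806287-36806447, chr1:67686530-67686690, chr4:58121850-58122155 and chr1:26492354-26492363. The chromosome 11 interval is 362 bp wide, had −log10 q of 5.39 and 5.87 in the H4K8ac libraries and lay 80 bp from the nearest H4K12ac peak and 212 bp from the nearest H4K5ac peak. It is the only shared interval at 5 or more in both libraries without other H4 acetylation. The chromosome 18 interval had 9.20 and 4.94 and lay 2581 bp from H4K5ac. The interval at position 67686530 of chromosome 1 was the most isolated of the 6, 21738 bp from H4K12ac and 28959 bp from H4K5ac, with −log10 q of 6.61 and 4.91. The one at position 26492354 was 10 bp wide and lay 13 bp from an H4K5ac peak. Of these 6 intervals, 5 carried no peak of H3K36me3, H3K9me3, H3K27me3, H3K4me1, H3K4me3, H3K27ac or BRD2 in either library, and the chromosome 20 interval carried an H3K4me1 peak in the second library alone, with −log10 q of 2.79.

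Across chromosomes the H4K8ac-only intervals followed the other shared intervals, with chromosome 19 as the largest departure. They had a mean density of 4.34 per Mb, and the others 18.9 per Mb. Chromosome 17 had 14.4 per Mb, chromosome 20 had 12.7, chromosome 2 had 7.97 and chromosome 12 had 7.63, whereas chromosome 4 had 0.738 and chromosome X 0.513. Chromosome Y held none of the H4K8ac-only intervals and 14 of the others. Across the 22 autosomes the densities of both sets, which come from the same H4K8ac libraries and share their depth, had a Pearson r of 0.894 and a Spearman rho of 0.885, given as a description. On chromosome 19, 201 shared intervals were H4K8ac-only and 2498 met other H4 acetylation, a share of 7.45% and the lowest of the autosomes. The highest share was 24.2%, on chromosome 2.

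**Figure D2:**
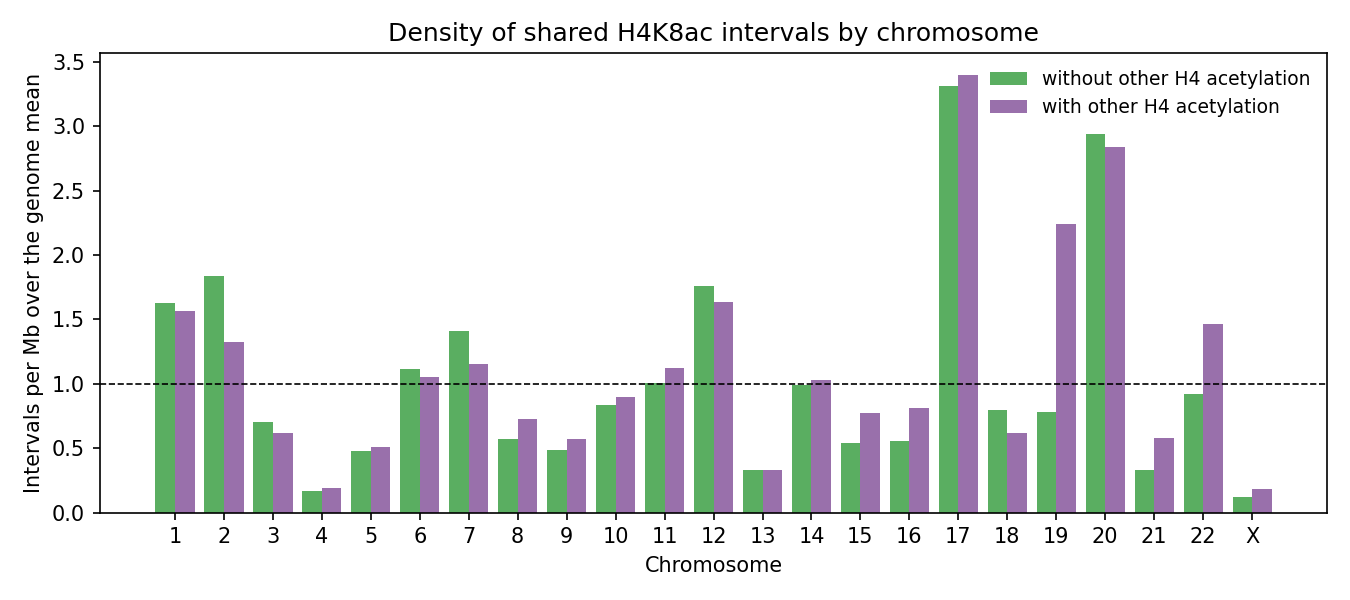
Intervals per Mb on each chromosome divided by the genome mean of their set (vertical axis), for H4K8ac-only intervals (green) and other shared intervals (purple); the dashed line is the genome mean. Both sets peak on chromosomes 17 and 20, and chromosome 19 stands at 0.785 for the H4K8ac-only and 2.24 for the other intervals.

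The median distance from one H4K8ac-only interval to the next was 31780 bp. When intervals no more than 5000 bp apart were joined, 8880 (68.2%) stood alone. There were 37 clusters of 5 or more, holding 210 intervals. The largest had 9 intervals between positions 62828769 and 62844463 of chromosome 20, and the next 8 between positions 69298344 and 69319262 of chromosome 11, the cluster that also holds the strongest interval. None of the intervals in these 2 clusters carried any of the 7 other targets in both libraries.

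Although they overlapped no other H4 acetylation, the H4K8ac-only intervals lay close to it. The median gap to the nearest H4K5ac, H4K5acK8ac or H4K12ac peak was 891 bp, with quartiles of 243 and 2644 bp. By target the median gap was 1642 bp to H4K5ac, 2311 bp to H4K12ac and 5428 bp to H4K5acK8ac, whose lists differ in length. The gap was under 200 bp for 2849 intervals (21.9%) and from 200 to under 1000 bp for 3982 (30.6%). Over every circular shift that met no other H4 acetylation these classes would have held 3.32% and 9.80%, so they were filled 6.59 and 3.12 times as often. The set includes the 2837 intervals whose H4K8ac peak met other H4 acetylation elsewhere, which must lie near it. Without them the median gap was 1438 bp. These shifts span whole chromosomes, and gaps at positions 100000 bp away were not worked out. At the far end, 178 intervals (1.37%) lay at least 20000 bp away, where 30.3% were expected.

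The other marks differed with that gap. H3K4me1 was met by 10.6% and 22.9% of the intervals within 200 bp, in the first and second library, and by 3.75% and 10.7% of those from 1000 to under 5000 bp away. At 20000 bp or more it was higher again, at 6.18% and 12.9%. H3K27ac went from 15.1% and 10.1% within 200 bp to 9.75% and 4.11% between 1000 and 5000 bp, and stood at 9.55% and 2.81% at 20000 bp or more. H3K36me3 went from 8.07% and 8.14% within 200 bp to 15.7% and 14.6% at 20000 bp or more, the last class resting on 178 intervals for every mark. Between the same classes H3K9me3 went from 2.14% and 2.95% to 5.06% and 6.74%. H3K27me3 went from 2.04% and 1.44% to 2.81% and 5.62%. For H3K36me3 the libraries of a class differed by less than the first and last classes did, whereas for H3K27ac the first library between 1000 and 5000 bp, at 9.75%, lay close to the second library within 200 bp, at 10.1%.

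**Figure D3:**
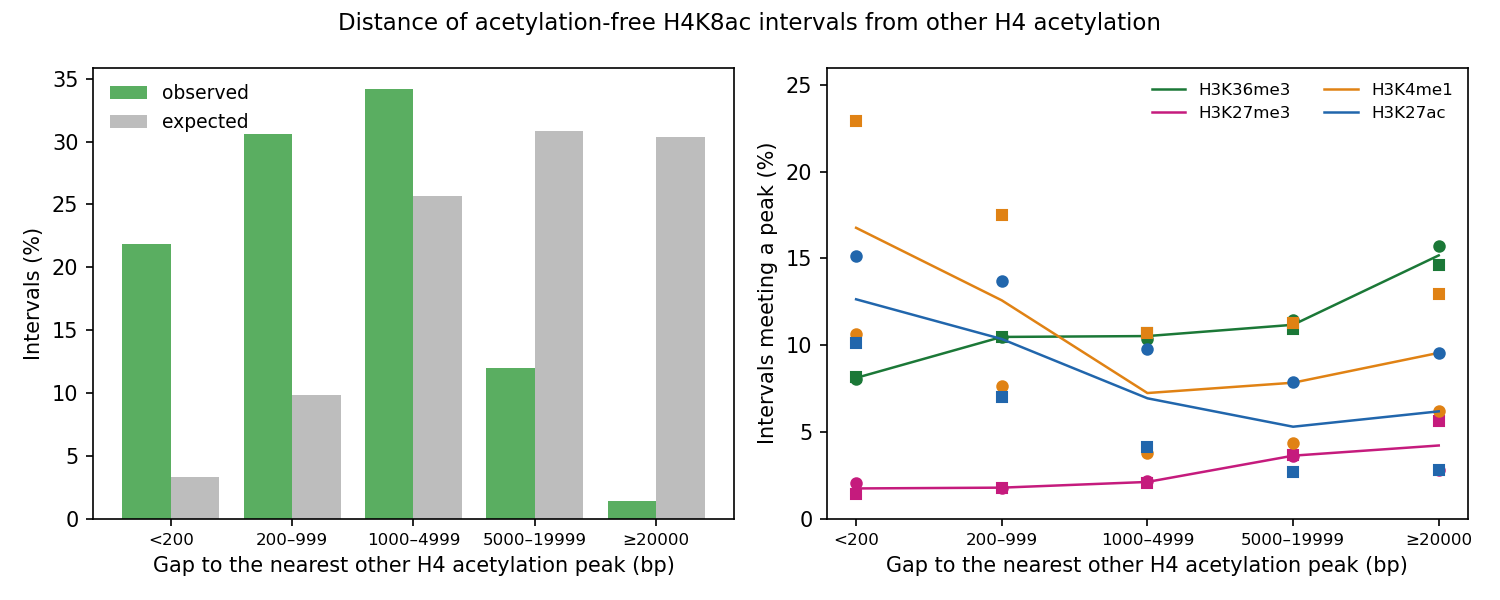
Left: percentage of H4K8ac-only intervals in each class of distance, in bp, to the nearest other H4 acetylation peak (green) and the mean over all circular shifts free of such peaks (grey). Right: percentage meeting a peak of 4 marks in the same classes, with circles for library 1, squares for library 2 and lines through their means; H3K36me3 rises from 8.11% to 15.2% and H3K4me1 goes from 16.8% to 9.55%.

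Most H4K8ac-only intervals carried no other target at all. No peak of any of the 7 remaining targets, in either library, was present at 8536 of them (65.6%), against 8562 (15.1%) of the other shared intervals. Counting a target where both of its libraries had a peak, 10945 (84.1%) carried none, 746 (5.73%) carried H3K36me3 alone, 431 (3.31%) H3K4me1 alone, 153 (1.18%) H3K9me3 alone and 102 (0.784%) H3K27ac alone. Of the other shared intervals, 27.4% carried none, 8.35% H3K4me1 alone and 3.79% H3K27ac alone. The share that would carry none at shifted positions was not worked out. H3K4me1 and H3K27ac together, the enhancer pair, were present in both libraries at 202 (1.55%), against 43.0% of the others.

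H3K4me3, the promoter mark, was nearly absent. It was met by 13 H4K8ac-only intervals in the first library and by 11 in the second, and by 9 in both, where 24.4% of all shared intervals met it in both. The other shared intervals met it at 30.6% and 30.7%. Observed over expected overlap, the expected share being the exact mean over every circular shift of the intervals, was 0.0524 ± 0.0060 (SD, n = 2 libraries) for the H4K8ac-only set and 15.1 for the others. Over the shifts that met no other H4 acetylation, the positions the rule allows, the ratio of the H4K8ac-only set was 0.266 (0.284 and 0.248 by library). With single H4K8ac lists in place of their intersection it was 0.128 without the libraries numbered 1 and 0.248 without those numbered 2. Within 1000 bp the ratio was still 0.288, within 5000 bp it was 1.08, and within 20000 bp 39.7% and 39.9% of the H4K8ac-only intervals had an H3K4me3 peak, 1.59 times the expected share.

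H3K27ac and H3K4me1 were far less frequent than at the other shared intervals. H3K27ac was met by 11.9% and 6.13% of the H4K8ac-only intervals and by 65.1% and 68.1% of the others, a difference of -57.6 ± 6.17 percentage points (SD, n = 2 libraries). It was present in both libraries at 487 (3.74%), where 49.7% of all shared intervals had it. H3K4me1 was met by 6.56% and 15.6% against 54.2% and 69.4%, a difference of -50.7 ± 4.42 percentage points, and stood in both libraries at 740 (5.69%), where 44.5% of all shared intervals had it. Both differences were many times the SD between libraries of the mark, which does not cover the spread of the H4 acetylation lists. With single H4K8ac lists in place of their intersection they were -46.2 and -40.7 percentage points without the libraries numbered 2. Without those numbered 1 they were -61.5 and -54.4. Both had the same sign in every class of width and on every autosome. Against the 38888 other shared intervals without H3K4me3 they were -44.8 ± 6.18 and -48.4 ± 4.55 percentage points. Where an H3K27ac peak did meet an H4K8ac-only interval it was weaker than at the other shared intervals, with a median −log10 q of 4.05 and 3.95 by library, against 27.3 and 52.4. The whole H3K27ac lists had medians of 4.22 and 5.72, so the peaks at H4K8ac-only intervals lay nearer to those.

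Whether H3K27ac and H3K4me1 exceeded the expected share depended on which positions were allowed. Over every circular shift the ratio was 1.81 ± 0.840 (2.40 and 1.22 by library) for H3K27ac and 1.49 ± 0.267 for H3K4me1. These shifts include positions with other H4 acetylation, which the rule bars. Over the shifts that met none, the ratio was 5.19 ± 1.72 for H3K27ac (6.40 and 3.98) and 2.69 ± 0.0614 for H3K4me1 (2.65 and 2.73). Moving each interval by 100000 bp to either side, which keeps it in the same neighbourhood, and keeping the moved ones free of other H4 acetylation, gave 2.50 ± 0.312 and 1.33 ± 0.0692. Without that condition, when 16.1% of the moved intervals met other H4 acetylation, the same moves gave 0.834 for H3K27ac (1.07 and 0.597 by library) and 0.719 for H3K4me1 (0.602 and 0.835). Thus against acetylation-free positions both marks had ratios over 1 in each library, while for the moves that also counted acetylated positions both H3K4me1 libraries and 1 of the 2 H3K27ac libraries had ratios under 1.

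BRD2, the bromodomain reader, was at few H4K8ac-only intervals. Its peaks met 292 (2.24%) in the first library and 142 (1.09%) in the second, against 23.7% and 34.0% of the others, a difference of -27.1 ± 8.09 percentage points. Against the others without H3K4me3 the difference was smaller, at -8.99 ± 4.89 percentage points (-5.54 and -12.45 by library). Among intervals under 100 bp the mean shares were 1.17% for the H4K8ac-only set and 6.65% for the others. Its peaks of both libraries met 4 of the 430 intervals that had either, where 16.9% of all shared intervals had both, and multiplying the shares of each library gives 3.18 intervals. Ratios to every shift were 2.22 and 0.962, on opposite sides of 1, with a mean of 1.59 ± 0.890. Over acetylation-free shifts they were 4.47 and 4.20, and 2.95 and 2.94 for acetylation-free positions 100000 bp away, whereas all positions 100000 bp away gave 1.21 and 0.481. With single H4K8ac lists in place of their intersection, the difference from the others was -15.6 percentage points without the libraries numbered 2, and the ratio to every shift was 0.999 without those numbered 1. The BRD2 peaks concerned were weak, with a median −log10 q of 0.803 and 1.31 against 2.34 and 5.71 at the other shared intervals. The whole BRD2 lists had medians of 1.06 and 2.17. With BRD2 peaks of q at most 0.05 alone, 66 and 72 H4K8ac-only intervals remained, the ratio to every shift was 0.839, and that to acetylation-free shifts was 4.87 and 4.68 by library.

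The 4 intervals with BRD2 in both libraries were chr1:46983555-46984107, chr14:57521997-57522220, chr17:73228873-73229107 and chr2:176983110-176983116. The last 2 were added after their values were seen. At the chromosome 1 interval, 553 bp wide, the BRD2 peaks had −log10 q of 0.751 and 1.65 and fold enrichment of 2.95 and 3.58. At the chromosome 14 interval they had 0.873 and 1.90. The interval on chromosome 2 was 7 bp wide and lay 70 bp from other H4 acetylation. Neither of the first pair carried another of the 7 targets.

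H3K36me3, the mark of transcribed gene bodies, was the mark whose libraries overlapped most at these intervals, with both at 75.5% of the 1501 that had either. It was met by 1314 H4K8ac-only intervals (10.1%) in the first library and 1320 (10.1%) in the second, and by 1133 (8.70%) in both, close to the 7.77% of all shared intervals. The other shared intervals met it at 9.13% and 8.88%, so the H4K8ac-only set was higher by 1.11 ± 0.212 percentage points, but against the others without H3K4me3 the difference was -0.850 ± 0.218 percentage points. The H4K8ac-only set had a lower share than the others also among intervals under 100 bp (9.50% against 10.2%) and a higher one from 100 to under 200 bp (10.4% against 9.55%). Its share was higher too from 200 to under 300 bp (10.35% against 8.61%) and from 300 to under 500 bp (9.75% against 7.83%). At 500 bp or more, with 47 H4K8ac-only intervals, it was lower (5.32% against 10.7%). The ratio to every circular shift was 1.11 ± 0.0217 and that to acetylation-free shifts 1.14 ± 0.0227. It was 0.585 ± 0.0086 against acetylation-free positions 100000 bp away, of which 17.4% and 17.2% met H3K36me3. The ratio exceeded 1 on 12 of 22 autosomes, from 0.463 to 2.09. The difference from the other shared intervals was -0.455 percentage points when the libraries numbered 1 were left out and 4.02 without those numbered 2, where single H4K8ac lists stand in for their intersection. So H3K36me3 was slightly above the genome-wide expectation and clearly below that of the neighbourhood, in both libraries.

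The H3K36me3 peaks that did meet H4K8ac-only intervals had a higher −log10 q than the lists they came from. Their median −log10 q was 11.4 and 9.79, against 4.66 and 4.72 over the whole lists, which places it at percentiles 82.4 and 79.5 of those lists. The H3K36me3 peaks at the other shared intervals had 7.68 and 7.45. Wide peaks are met more often than narrow ones at any position, and the medians at shifted positions were not worked out. Of the 1133 H4K8ac-only intervals with H3K36me3 in both libraries, 61.1% and 27.9% also met H3K27ac, and 282 (24.9%) met it in both. Of the 11516 without H3K36me3 in either, 6.20% and 3.69% met H3K27ac, and 162 (1.41%) in both. The contrast was smaller for H3K4me1, present in both libraries at 17.7% and 4.11%. Among the other shared intervals H3K27ac in both libraries stood at 88.5% with and 57.1% without H3K36me3. The intervals with H3K36me3 thus held 282 of the 487 with H3K27ac in both libraries.

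The 2 strongest H4K8ac-only intervals with H3K36me3 in both libraries were also the 2 strongest with H3K27ac. The interval chr7:47367385-47367970, 586 bp wide and 535 bp from H4K12ac, had H4K8ac −log10 q of 5.81 and 4.25. Its H3K36me3 peaks had 9.02 and 4.51, its H3K27ac peaks 7.26 and 4.54 and its H3K4me1 peaks 3.67 and 22.9. The interval chr7:158240564-158240870 lay 120 bp from H4K5ac and had H4K8ac −log10 q of 5.56 and 4.21, H3K36me3 of 6.97 and 6.68 and H3K27ac of 4.22 and 13.7, with no H3K4me1 peak. The strongest with H3K4me1 in both were chr19:13190333-13190577 and chr1:45814816-45814887, the second 24 bp from an H4K5ac peak and under H3K4me1 peaks with −log10 q of 7.30 and 58.3. Each had H3K27ac in 1 library.

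Both repressive marks were met less often than expected over every circular shift, in both sets. The other shared intervals had ratios of 0.187 for H3K27me3 and 0.357 for H3K9me3. H3K27me3, laid down by Polycomb repressive complex 2, was met by 2.20% and 2.08% of the H4K8ac-only intervals, a ratio of 0.317 ± 0.0450, and in both libraries by 139 (1.07%), where 0.901% of all shared intervals met it. The other shared intervals met it at 1.33% and 1.51%, lower by 0.717 ± 0.210 percentage points, and the ratio of the H4K8ac-only set was under 1 on all 22 autosomes. On 21 of the 22 the H4K8ac-only set had the higher share. Compared with the others without H3K4me3, its share was higher by 1.18 ± 0.0385 percentage points. H3K9me3, the heterochromatin mark, was met by 2.39% and 3.03%, a ratio of 0.399 ± 0.0071, and in both libraries by 207 (1.59%), where 1.76% of all shared intervals met it. Its difference from the other shared intervals, -0.118 ± 0.165 percentage points, was within the spread between libraries, and it was 0.788 without the libraries numbered 1 and -0.0118 without those numbered 2. Against the others without H3K4me3 the H3K9me3 difference was -0.825 ± 0.109 percentage points (-0.902 and -0.748 by library). Without the libraries numbered 1, the H3K9me3 ratio was 0.604, the H3K27me3 ratio 0.518 and the H3K27me3 difference 2.17 percentage points. Against acetylation-free positions 100000 bp away the ratios were 0.479 and 0.478. The intervals with a repressive mark in both libraries overlapped in part, as 41 carried H3K9me3 and H3K27me3 together. Examples with H3K9me3 are chr20:61967240-61967314 and chr17:75757501-75757705, the second with H3K9me3 −log10 q of 5.12 and 5.02, and with H3K27me3 chr1:19162066-19162325 and chr7:32394956-32395059, the second with 5.78 and 7.01.

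**Figure D4:**
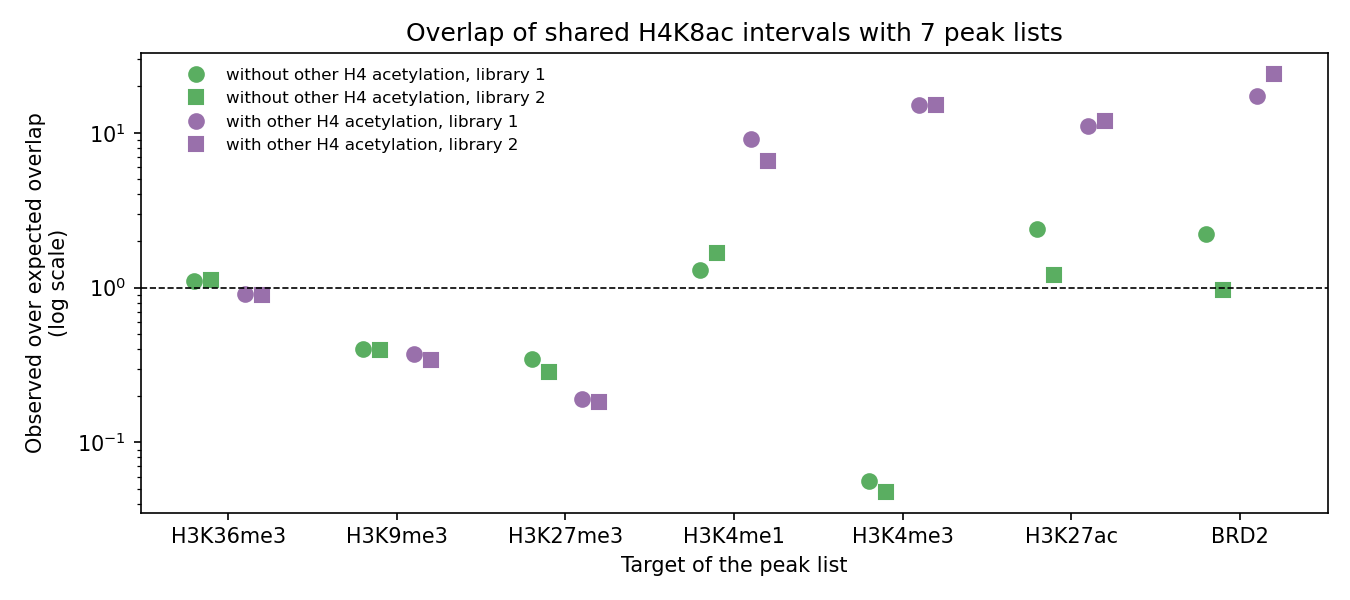
Observed over expected overlap (log scale), expected from every circular shift, with the peaks of 7 targets for H4K8ac-only intervals (green) and other shared intervals (purple); circles are library 1 of the target and squares library 2. The sets stand close at H3K9me3 and at H3K36me3, where they lie on opposite sides of 1 (1.11 and 0.904). They stand apart at H3K4me3, where the ratios are 0.0524 and 15.1. The shifts include positions with other H4 acetylation, which the rule bars for the H4K8ac-only set. Over shifts without it the H4K8ac-only ratio at H3K4me3 was 0.266.

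In widened windows the ratios of both sets came closer for H3K27ac, BRD2, H3K4me1 and H3K4me3. For H3K36me3 their order changed, from 1.11 against 0.904 for the others without widening to 1.00 against 1.22 within 1000 bp. The H3K36me3 ratios were 1.01 against 1.94 within 5000 bp and 1.32 against 2.00 within 20000 bp. Within 20000 bp, 74.7% and 71.1% of the H4K8ac-only intervals had an H3K27ac peak, 74.4% and 63.7% a BRD2 peak and 81.7% and 91.3% an H3K4me1 peak, between 1.54 and 1.81 times the expected shares on the mean of both libraries. The other shared intervals had H3K27ac within that distance at 92.7% and 92.5%. H3K36me3 rose from a ratio of 1.00 within 1000 bp to 1.32 within 20000 bp, where 38.2% and 38.1% had a peak, against 59.8% and 59.5% of the others. H3K27me3 and H3K9me3 went from 0.273 and 0.371 within 1000 bp to 0.886 and 0.939 within 20000 bp.

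**Figure D5:**
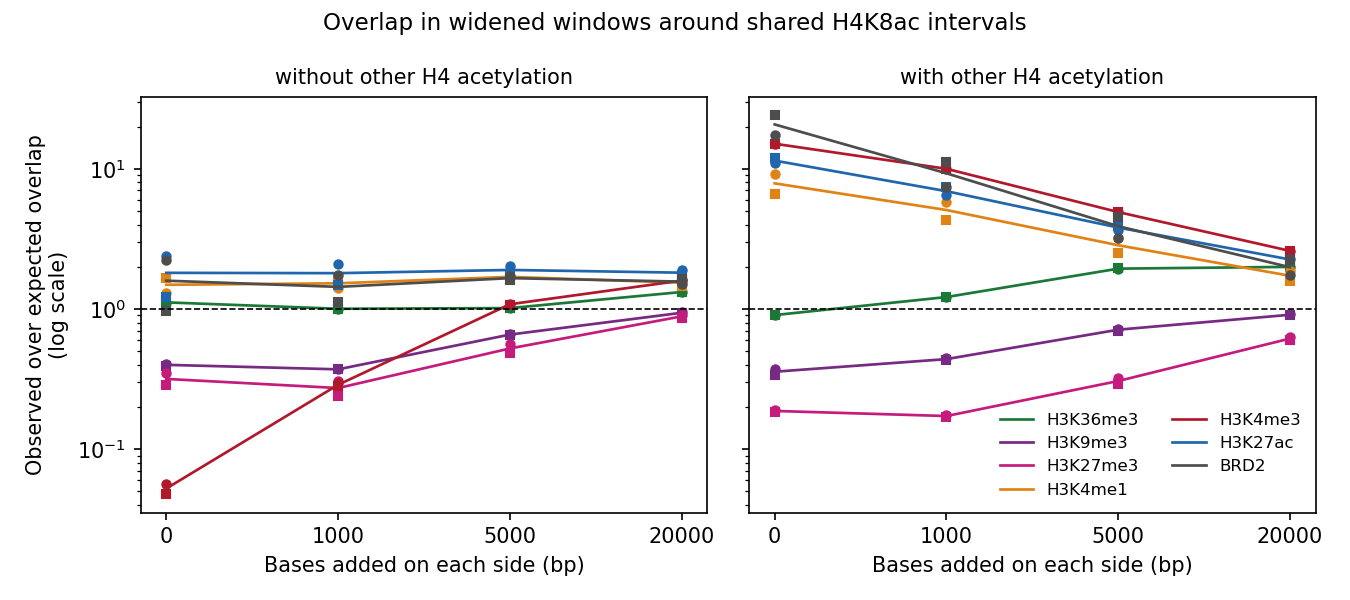
Observed over expected overlap (log scale) with the peaks of 7 targets after adding 0 to 20000 bp on each side of the interval, for H4K8ac-only (left) and other shared intervals (right); circles are library 1, squares library 2 and lines join their means. H3K4me3 goes from 0.0524 to 1.59 on the left and from 15.1 to 2.60 on the right.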

How the data were processed

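Reads were aligned to hg19 with BWA and peaks called with MACS2, per the submitters' processing notes, which give no versions; further settings are not given in the sources used here. Each deposited list holds 1 library. In the deposited lists the fold enrichment is a ratio to local background, significance is given as −log10 p and −log10 q, the score and the summit offset were not used. Groups and replicate numbers follow the sample titles; for the second H3K9me3 library the description has a different number and the title was followed. Lists were used whole. Overlap means at least 1 shared bp. The expected share is the exact mean over every circular shift in steps of 1 bp within the span of called peaks of a chromosome, without random draws. Python 3.11.15, numpy 2.4.6, scipy 1.17.1, pandas 2.3.3 and matplotlib 3.10.9 were used, and the functions were tested on simulated data. Named regions are the 6 with the highest lower H4K8ac −log10 q and the 2 highest with each mark in both libraries (not H3K4me3), on autosomes other than 8, with 1 per Mb. Members, marks and comparisons were chosen with earlier results of these data known. The gene tables at hand are for GRCh38.p14, and peaks lay beyond their last gene end on 15 of 24 chromosomes, so genes and sequences at the intervals were not analysed here. Alternatives covered thresholds, widths, left-out libraries and other expected shares.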

Additional observations from a re-analysis of the deposited data

How the results depend on the processing

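Depth is unknown, H4K8ac peaks of this strength are recovered poorly between libraries, and the expected share depends on the positions allowed. Of 175 alternative ratios and differences, 12 changed direction, that is crossed 1 or 0. Of these, 3 are BRD2 ratios (0.839 with BRD2 peaks of q at most 0.05, 0.847 for moves by 100000 bp and 0.999 without replicate 1), which differed from 1.59 by less than its SD, as the BRD2 libraries lay on both sides of 1 already. With those 3, 97 values moved by no more than 1 SD between libraries, and 69 moved further without crossing 1 or 0. Of 8 alternatives for the number of intervals, 3 stayed within 1.5 times of 13017. Ratios below are observed over expected overlap, and differences are H4K8ac-only minus other shared intervals in percentage points. The causes were not tested.

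With other H4 acetylation peaks widened by 1000 bp, 6186 H4K8ac-only intervals remained. Ratios were then 1.22 for H3K36me3, 0.469 for H3K9me3, 0.380 for H3K27me3, 1.01 for H3K4me1 and 0.0284 for H3K4me3, and differences 1.76 for H3K36me3, 1.09 for H3K27me3, -27.3 for H3K4me3 and, reversed, 0.400 for H3K9me3. Intervals of at least 200 bp numbered 6308, with ratios of 1.08 (H3K36me3), 0.363 (H3K9me3) and 0.0347 (H3K4me3) and differences of 1.43 (H3K36me3) and -35.0 (H3K4me3). With H4K8ac peaks of q at most 0.05 the ratios were 1.08, 0.411 and 0.0354 for the same marks and the H3K4me3 difference -32.9. Where acetylation peaks had to pass that q to leave an interval out, they were 0.391 for H3K9me3 and 0.0641 for H3K4me3, with an H3K4me3 difference of -31.2. Asking for 50% of the interval to be covered gave ratios of 1.19 (H3K36me3) and 0.429 (H3K9me3) and differences of 1.90 (H3K36me3), -28.3 (H3K4me3) and, reversed, 0.187 (H3K9me3). On autosomes the H3K4me3 difference was -30.3.

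Leaving empty 1 Mb bins out of the span gave ratios of 1.08 for H3K36me3 and 0.389 for H3K9me3. Moving the intervals by 100000 bp reversed H3K36me3 (0.610), H3K4me1 (0.719) and H3K27ac (0.834) and gave 0.512 for H3K9me3, 0.519 for H3K27me3 and 0.0270 for H3K4me3. The remaining settings were chosen after seeing the data. Moves free of other H4 acetylation reversed H3K36me3 (0.585) and gave 0.478 for H3K9me3, 0.479 for H3K27me3, 0.172 for H3K4me3 and 2.95 for BRD2. Shifts free of it gave 1.14 for H3K36me3, 0.386 for H3K9me3, 2.69 for H3K4me1, 0.266 for H3K4me3, 5.19 for H3K27ac and 4.33 for BRD2. With mark peaks of q at most 0.05 as well, these 6 ratios were 1.14, 0.384, 2.67, 0.267, 5.18 and 4.78.

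Leaving out 1 replicate number, which leaves single H4K8ac lists in place of their intersection, gave 52830 to 127355 intervals. Ratios ran from 1.06 to 1.63 for H3K36me3, 0.434 to 0.604 for H3K9me3, 0.437 to 0.518 for H3K27me3, 1.38 to 1.85 for H3K4me1, 0.128 to 0.248 for H3K4me3, 1.56 to 2.49 for H3K27ac and 0.999 to 1.74 for BRD2. Differences ran from -0.455 to 4.02 for H3K36me3 and from -0.0118 to 0.788 for H3K9me3, both reversed without replicate 1. They ran from 0.760 to 2.17 for H3K27me3, -54.4 to -40.7 for H3K4me1, -29.0 to -27.7 for H3K4me3, -61.5 to -46.2 for H3K27ac and -30.0 to -15.6 for BRD2. Keeping each replicate number as a block, with the mean of both, gave 90090 intervals, ratios of 1.34 (H3K36me3), 0.519 (H3K9me3), 0.477 (H3K27me3) and 0.188 (H3K4me3) and differences of 1.78 (H3K36me3), 1.46 (H3K27me3), -28.4 (H3K4me3) and, reversed, 0.388 (H3K9me3). Over 55 pairs of targets the correlation of same-numbered deviations ran from -0.242 to 0.355, and 2 exceeded 0.1. These values cannot tell whether libraries with the same number were paired, for example by culture.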

Other observations

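The densest 1 Mb bins of H4K8ac-only intervals, listed after their values were seen, were positions 69000001 to 70000000 of chromosome 11 with 57 intervals (and 249 other shared intervals), 43000001 to 44000000 of chromosome 6 with 52 (179), 110000001 to 111000000 of chromosome 1 with 50 (166) and 42000001 to 43000000 of chromosome 20 with 50 (87). In the chromosome 11 bin, 7 of the 57 carried H3K9me3 in both libraries and 1 carried H3K36me3. In the neighbouring bin, 70000001 to 71000000, 9 of 49 carried H3K36me3 and 4 carried H3K4me1 in both libraries. Any H4K8ac-only interval was present in 1691 of 3018 bins, and the 30 densest bins held 10.3% of the H4K8ac-only and 11.2% of the other shared intervals.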
